A study of Mus musculus with 14 samples.

Results

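Heat-shock proteins and their co-chaperones were followed in macrophages from mouse mammary tumours, as the genes whose symbols begin with Hspa, Hspb, Hspd, Hspe, Hsph, Hsp90 or Dnaj, together with the CCT chaperonin subunits, the BAG co-chaperones and the heat-shock factors Hsf1 and Hsf2. Of 82 protein-coding genes that met this symbol rule, 67 also passed a filter on low values, a log2 value of 3.32 (10 when unlogged) or more in 3 or more of the 14 libraries. These 67 members stand among 11886 genes kept by the same filter, out of 24556 genes in the deposited table. Treatment labels and measured differences played no part in the rule.

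The macrophages were selected with F4/80 magnetic beads over 2 rounds of columns from fat-pad tumours of Balb/c mice, and the tumours were grown from 4T1 cells, a mouse mammary carcinoma line. Before injection the 4T1 cells had been cultured for 5 days with 5 µM GSK269962A, a compound that the labels shorten to GSKi, or with DMSO, its vehicle. The 4 groups were GSK day 8 (3 libraries), DMSO day 8 (3 libraries), GSK day 14 (4 libraries) and DMSO day 14 (4 libraries), where the day counts from the injection and GSK or DMSO names what the tumour cells, and not the macrophages, had received. The labels do not say that each library came from a separate mouse, so p-values measure the spread between these samples, which may be technical. They also do not say whether the 4T1 cells of a group came from 1 culture.

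Chaperones bind unfolded or partly folded proteins and keep them from aggregating. The HSP70 proteins work in cycles of ATP hydrolysis that J-domain proteins (Dnaja, Dnajb and Dnajc) start and that HSP110 and BAG proteins advance by releasing ADP. HSP90 proteins take over late-folding clients such as kinases and steroid receptors, while closed chambers fold others: Hspd1 with its lid Hspe1 in mitochondria, and the CCT ring, which folds actin and tubulin, in the cytosol. Heat-shock factor 1 raises many of these genes in stressed cells through heat-shock elements, repeats of GAA and its complement TTC, and ER chaperones such as Hspa5 answer to the unfolded protein response. In macrophages several of these genes are also known to rise on handling of tissue and on inflammatory stimulation.

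All values are log2 values as the authors deposited them, changes are log2 differences, and SE stands for their standard error from limma. Every column was assigned to a library, and no counts were used, so the depth behind a value is unknown. Macrophage markers stood at high levels in all groups: the summed level of 10 pan-macrophage genes, the log2 of their added unlogged values, lay at 15.15 to 15.49 in GSK day 14 libraries and at 15.02 to 15.59 in DMSO day 14 libraries. Libraries differed in which of 2 overlapping ribosomal RNA rows was higher, AY036118 or Gm42418, which lie on opposite strands of chromosome 17. AY036118 was the higher row in GSK day 8 libraries 2 and 3, in DMSO day 8 library 2, in all 4 GSK day 14 libraries, and in DMSO day 14 libraries 1 and 3. Since the other 5 libraries include no GSK day 14 library, values within the AY036118-high libraries, and from a model that includes this split, stand beside the results below. The part that the split had in any result was not tested.

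The members spanned a wide range of levels. Per kilobase of exon, the mean log2 level over all libraries was highest for the cytosolic HSP90 gene Hsp90ab1 at 13.01, followed by its stress-linked relative Hsp90aa1 at 12.03, the ER HSP70 gene Hspa5 (BiP) at 11.40, the ER HSP90 gene Hsp90b1 (GRP94) at 10.26 and the CCT subunit Cct8 at 9.92. Dnajb5, a class B J-domain gene, was lowest at 1.28. In the other classes the highest member by mean log2 value was Dnajb6 (11.69) among class B J-domain genes, Dnaja2 (11.15) in class A, Dnajc1 (9.47) in class C, Hspd1 (10.73) in the mitochondrial pair, Bag1 (9.67) among BAG genes, Hsf2 (9.18) among the factors and Hspb1 (5.91) among small heat-shock proteins. Hspbp1, an HSP70-binding exchange factor, averaged 4.57. Of the 15 genes below the filter, Dnaja4 and Hspa1l came nearest, each at or above the minimum in 1 library with 3.60 and 3.46 as their highest values, while Dnajc4 was the lowest member inside it, at 2.78 to 3.54. The other genes left out were Bag2, Hspbap1, Hspa12a, Hspa12b, Dnajb13, Dnajb3, Dnajb7, Dnajc17, Dnajc28, Hspb2, Hspb6, Hspb7 and Hspb9.

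**Figure D1:**
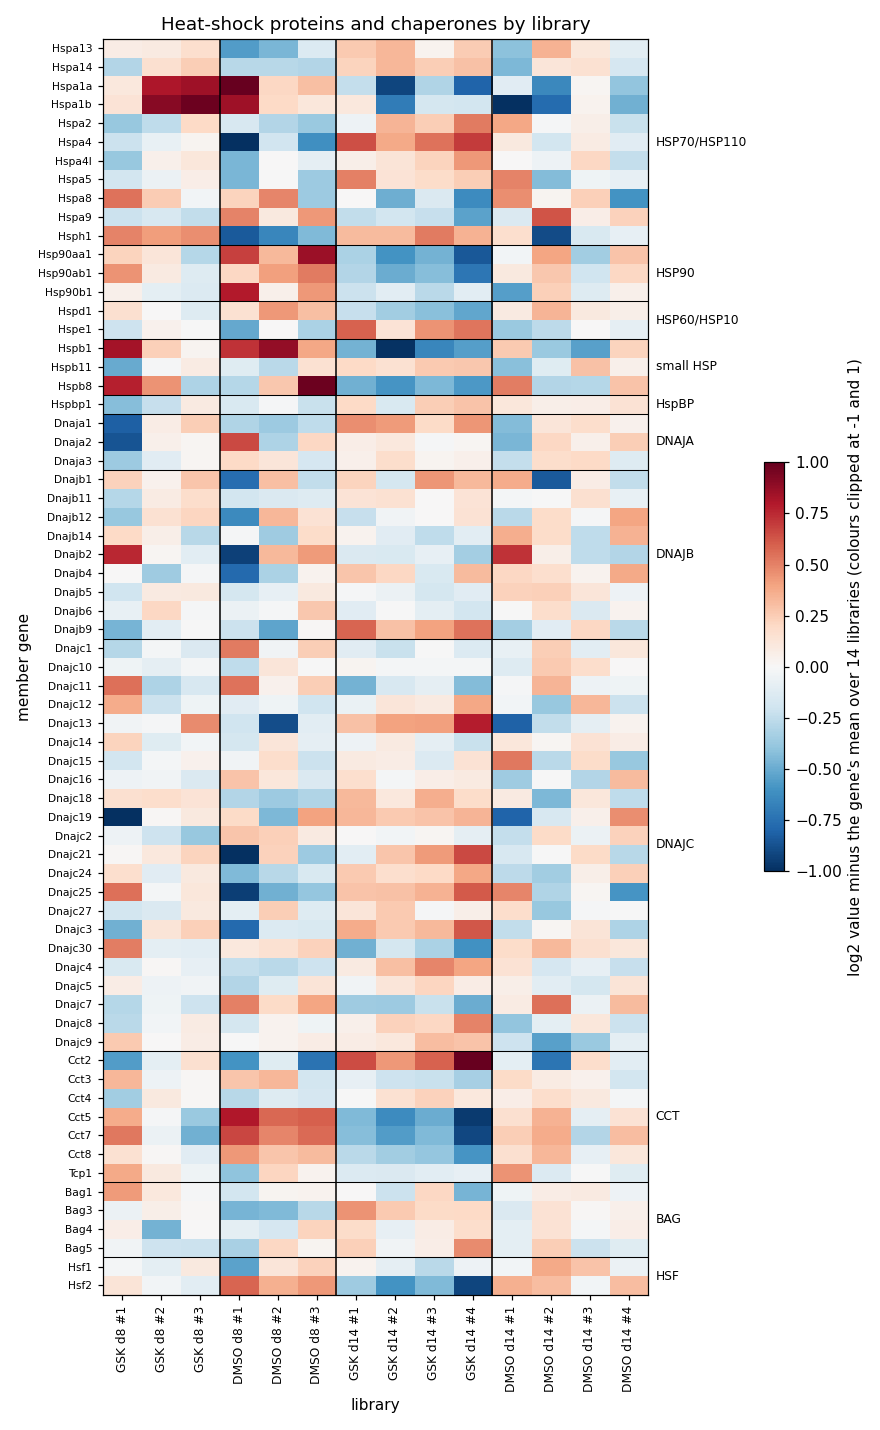
Each row is 1 of the 67 members, grouped by class, and each column 1 library; colour gives the log2 value minus that gene's mean over the 14 libraries. Blocks of a class do not share 1 colour: in the CCT class, Cct2 is red in all 4 GSK day 14 libraries where Cct5, Cct7 and Cct8 are blue.

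On day 14, 17 of the 67 members (25.4%) passed an adjusted p of 0.05 between GSK and DMSO tumours, 8 higher and 9 lower in GSK, against 10.8% of all genes in either direction (5.10% higher, 5.73% lower). The higher members were Cct2, Dnajc13, Hsph1, Hspe1, Hspa4, Dnajb9, Dnajc9 and Dnajc4, and the lower ones Hsf2, Cct5, Cct7, Hsp90aa1, Dnajc7, Dnajc30, Hsp90ab1, Hspd1 and Cct8. Among these, Dnajc4 passed the filter only through GSK day 14 libraries, the group where it was high. The changes ran from -0.82 to 0.87 over the members, with a median of 0.05, and the median of all genes was 0.02. Groups did not overlap for 22 members, 11 in each direction, while 22.0% of all genes had groups that did not overlap (11.2% higher, 10.7% lower). At an unadjusted p under 0.05 there were 27 members (40.3%), against 27.3% of all genes. Within the AY036118-high libraries (4 GSK, 2 DMSO on day 14), 8 of the 17 passed: Cct2, Cct5, Dnajc13, Dnajc30, Hsf2, Hspa4, Hspd1 and Hspe1. With the split as a term 4 passed, Cct5, Dnajc13, Hsf2 and Hspd1. With that term 173 of all genes were higher and 189 lower, against 606 and 681 in the main model. All 17 kept their direction in both settings. Single libraries also carried much of the count: without GSK day 14 library 4 it was 1 (Hsf2), without DMSO day 14 library 2 it was 2 (Cct5 and Hsf2), and without GSK day 14 library 1, GSK day 14 library 2, GSK day 14 library 3 or DMSO day 14 library 4 it was 9, 10, 9 and 10. Over all genes the calls dropped too, to 105 higher and 116 lower without GSK day 14 library 4. They were 296 and 372 without GSK day 14 library 1, 369 and 399 without library 2, and 299 and 403 without library 3.

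**Figure D2:**
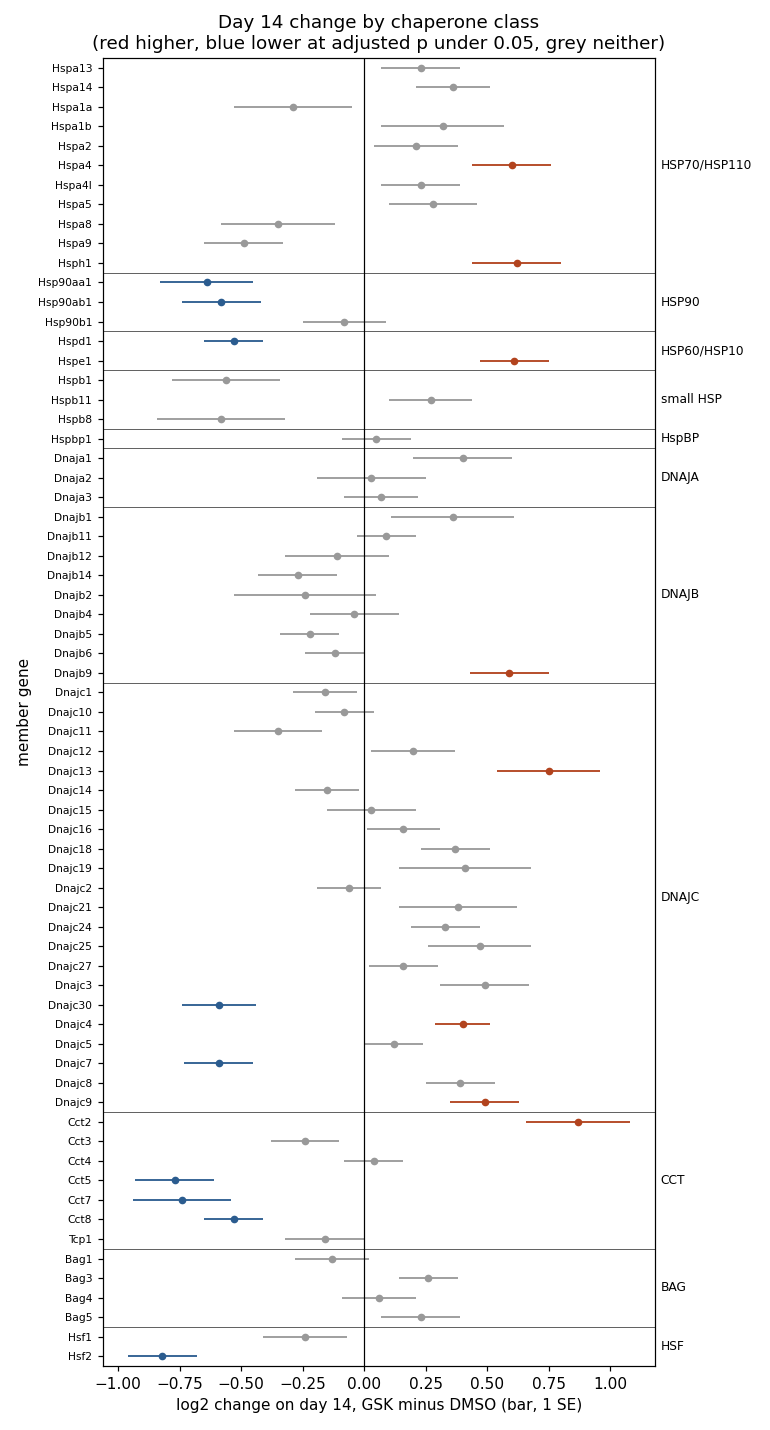
Points give the log2 change of each member on day 14, GSK minus DMSO, with bars of 1 SE, grouped by class from top to bottom; red and blue mark the 8 higher and 9 lower members at an adjusted p under 0.05. Both HSP90 genes of the cytosol lie on the lower side, while the CCT class and the Hspd1 and Hspe1 pair hold members on both sides.

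On day 8, 1 of 67 members passed, Hsph1, against 0.194% of all genes (0.0589% higher, 0.135% lower). At an unadjusted p under 0.05 there were 18 members (26.9%), against 16.3% of all genes. Groups did not overlap for 16 members, 8 in each direction, against 16.2% of all genes (8.01% higher, 8.14% lower). The difference between the day 14 and day 8 effects passed for 0 members by limma, with 2 at an unadjusted p under 0.05 (Dnajc30 at -0.53 and Dnajb9 at 0.54), against 0.00841% of all genes adjusted and 8.30% unadjusted, so no member was shown to respond differently on the 2 days. Averaged over both days, 19 members passed, 10 higher and 9 lower, against 14.5% of all genes (6.73% higher, 7.77% lower). The 10 include Dnajc4, which passed the filter only through GSK day 14 libraries. Of the 19 members, 8 also passed with the rRNA split in the model, where 268 of all 11886 genes were higher and 361 lower. Within the AY036118-high libraries, where 1 DMSO day 8 library was left and was assumed to vary like the other groups, 9 members passed this average, 7 of them among the 19. Without GSK day 8 library 3 the average gave 12 members, with 314 of all genes higher and 472 lower.

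Hsph1 encodes HSP110, the large relative of HSP70 that releases ADP from it, and lies on chromosome 5 (149614287 to 149636376, minus strand). It measured 8.52, 8.44 and 8.49 in GSK day 8 libraries, against 7.18, 7.37 and 7.58 in DMSO day 8 libraries. On day 14 it measured 8.34, 8.34, 8.54 and 8.37 in GSK libraries and 8.19, 7.13, 7.87 and 7.94 in DMSO libraries. All GSK libraries were above all DMSO libraries of the same day, and the GSK values of both days lay within a narrow band while DMSO values spread. The change was 1.10 (SE 0.21, adjusted p = 0.0386) on day 8, 0.62 (SE 0.18, adjusted p = 0.0406) on day 14 and 0.86 (SE 0.14, adjusted p = 0.00187) over both days by limma. Within the AY036118-high libraries the day 8 change was 1.10 (adjusted p = 0.0321) and the day 14 change 0.37 (adjusted p = 0.108), and with the rRNA split in the model the day 8 change was 1.04 (adjusted p = 0.0606). When each library was left out in turn, the day 8 change stayed between 1.01 and 1.21, but its call was lost without GSK day 8 library 2 or 3, DMSO day 8 library 1, any of the 4 GSK day 14 libraries or DMSO day 14 library 4. The day 14 change ran from 0.40 to 0.75 and its call was lost without GSK day 8 library 2, any GSK day 14 library, or DMSO day 14 library 2 or 4.

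The promoter window of Hsph1, 250 bases before to 50 after a RefSeq start of build GRCm38.p6, is shown because Hsph1 was the member called on both days. Capitals mark matches to the heat-shock element searched, GAANNTTC or TTCNNGAA, on both strands.
Hsph1 (chr5:149636266-149636565, - strand): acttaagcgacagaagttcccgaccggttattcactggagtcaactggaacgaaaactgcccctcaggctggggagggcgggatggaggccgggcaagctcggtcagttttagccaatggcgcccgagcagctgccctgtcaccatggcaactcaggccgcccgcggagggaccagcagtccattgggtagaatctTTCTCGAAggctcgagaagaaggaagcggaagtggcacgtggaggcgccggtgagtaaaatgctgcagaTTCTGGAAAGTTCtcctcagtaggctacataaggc
A match begins 54 bases before the start, and a run of 2 overlapping matches begins at base 16 counted from the start.

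Among the other HSP70 genes on day 14, Hspa4 (Apg-2, a second HSP110 relative) was the 1 other member of this class to rise. Hspa4 measured 10.38, 10.11, 10.28 and 10.43 in GSK day 14 libraries, against 9.83, 9.55, 9.82 and 9.62 in DMSO day 14 libraries. The groups did not overlap, and the change was 0.60 (SE 0.16, adjusted p = 0.0293). Its day 8 change was 0.54 (SE 0.18, adjusted p = 0.168), and over both days it was 0.57 (adjusted p = 0.00791). Within the AY036118-high libraries the day 14 call held at 0.48 (adjusted p = 0.0462), while the day 8 change was 0.17 and the call over both days was lost at 0.32 (adjusted p = 0.0721). The day 14 call was lost without GSK day 14 library 1, 3 or 4 or DMSO day 14 library 2 or 4, with values of 0.54 to 0.66.

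Hspa9 (mortalin), the mitochondrial HSP70, pulls proteins through the inner membrane and folds them. It measured 9.89, 9.95, 9.90 and 9.60 in GSK day 14 libraries, against 9.99, 10.76, 10.20 and 10.36 in DMSO day 14 libraries, and the change of -0.49 (SE 0.16) missed the threshold at an adjusted p of 0.0542. Over both days Hspa9 fell by 0.52 on the log2 scale (SE 0.12, adjusted p = 0.0109), and its groups did not overlap on either day. However, within the AY036118-high libraries the mean change was -0.28 (adjusted p = 0.13). Hspa5, the ER HSP70 that the unfolded protein response raises, averaged 13.74 ± 0.17 in GSK and 13.46 ± 0.38 in DMSO on day 14 (SD, n = 4 each), a change of 0.28 with a 95% interval of -0.09 to 0.66. Hspa8, the constitutive cytosolic HSP70, averaged 9.92 ± 0.29 and 10.27 ± 0.46, a change of -0.35 with an interval of -0.83 to 0.14. Across the 11 HSP70 and HSP110 members, 2 rose and 0 fell on day 14, against 5.10% and 5.73% of all genes.

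The heat-inducible pair Hspa1a and Hspa1b did not pass between pre-treatments. On day 14 the change was -0.29 for Hspa1a (95% interval -0.79 to 0.21) and 0.32 for Hspa1b (-0.22 to 0.86). On day 8 it was 0.05 for Hspa1a (-0.53 to 0.63) and 0.29 for Hspa1b (-0.33 to 0.91). The genes lie near each other on chromosome 17, share 63.8% (Hspa1a) and 67.7% (Hspa1b) of their exonic 31-base words, and the counting could have split their reads either way, so the opposite signs on day 14 are uncertain. Hspa1a exons also overlap the antisense gene Gm20481 over 564 bases.

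HSP90 genes of the cytosol were lower in GSK than in DMSO tumours on day 14, with calls that several settings did not keep. Hsp90aa1, the isoform that heat shock raises, measured 13.69, 13.41, 13.53 and 13.16 in GSK day 14 libraries, against 13.98, 14.40, 13.66 and 14.29 in DMSO day 14 libraries. A single DMSO library, number 3, lay just below the highest GSK library. Hsp90ab1, the constitutive isoform, measured 14.30, 14.09, 14.16 and 13.87 in GSK day 14 libraries, against 14.69, 14.86, 14.39 and 14.80 in DMSO day 14 libraries, without overlap. Hsp90aa1 changed by -0.64 (SE 0.19, adjusted p = 0.0419) and Hsp90ab1 by -0.58 (SE 0.16, adjusted p = 0.0343). Under quantile normalisation both missed the threshold, at -0.51 for Hsp90aa1 (adjusted p = 0.0601) and -0.45 for Hsp90ab1 (adjusted p = 0.0619). Both also missed it with a replicate block (adjusted p = 0.066 and 0.055) and with no filter (adjusted p = 0.092 and 0.0638). The ER isoform Hsp90b1 averaged 12.09 ± 0.08 in GSK and 12.17 ± 0.34 in DMSO (SD, n = 4 each), a change of -0.08 whose sign turned under several settings.
On day 8 the changes were -0.60 for Hsp90aa1, -0.24 for Hsp90ab1 and -0.49 for Hsp90b1, with adjusted p from 0.192 to 0.556. Neither day 14 call held within the AY036118-high libraries, where the changes were -0.37 for Hsp90aa1 (adjusted p = 0.208) and -0.44 for Hsp90ab1 (adjusted p = 0.111). Over the same omissions, Hsp90aa1 ranged from -0.78 to -0.53 and lost its call in 8 of 14 cases (without GSK day 8 library 2, any GSK day 14 library, or DMSO day 14 library 1, 2 or 4). Hsp90ab1 ranged from -0.68 to -0.50 and lost it in 6 (without GSK day 14 library 2, 3 or 4, or DMSO day 14 library 1, 2 or 4). Of the exonic 31-base words of Hsp90aa1, 51.5% occur in other genes as well, so its reads could have been shared.

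**Figure D3:**
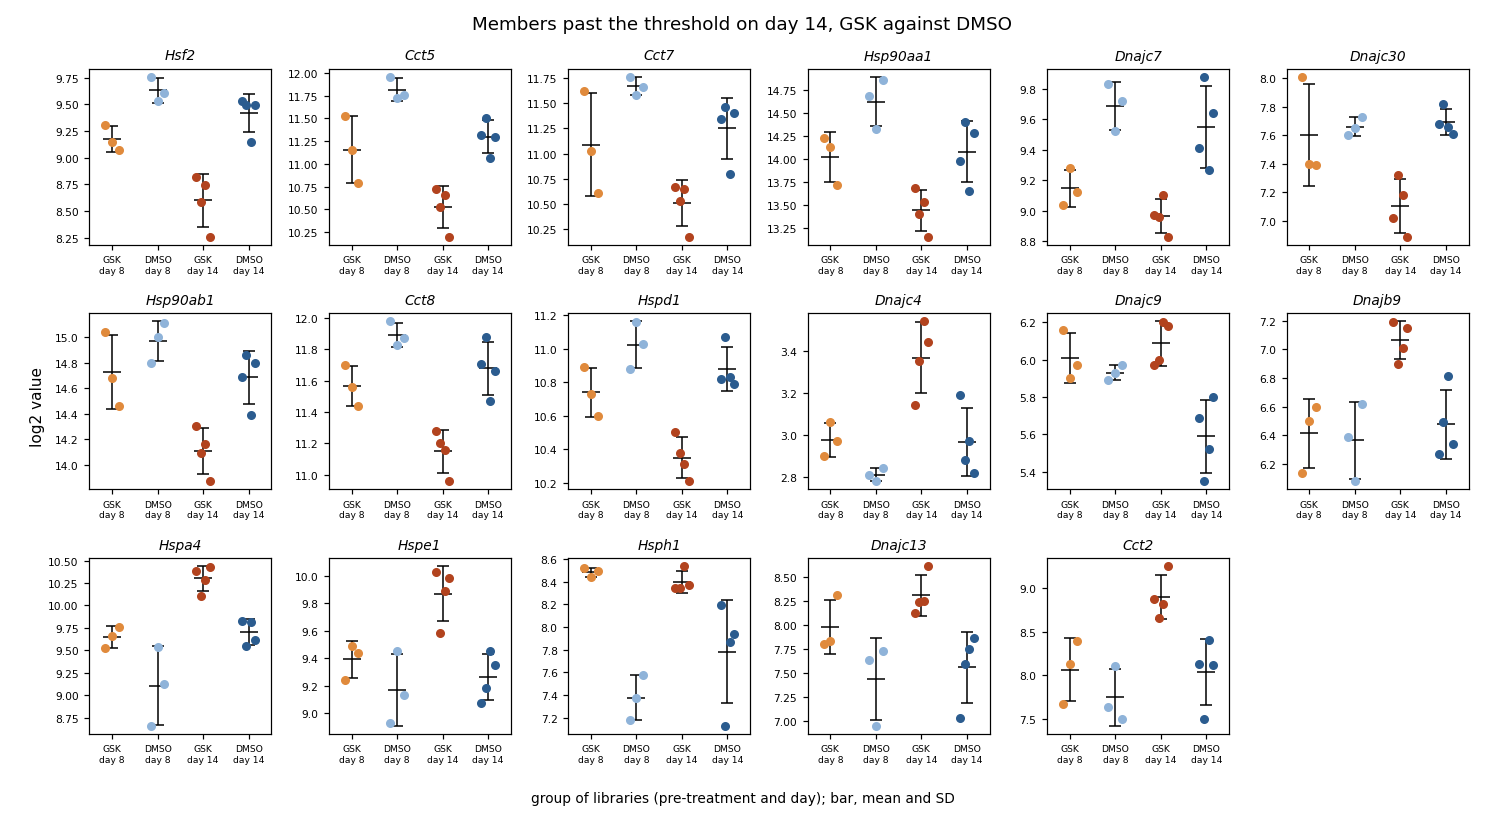
Each panel shows 1 of the 17 members past the threshold on day 14, with the log2 value of every library by group and a bar for the mean and SD; panels run from the most negative to the most positive change. GSK day 14 libraries lie apart from DMSO day 14 libraries for all panels but Hsp90aa1 and Dnajc4.

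The mitochondrial chaperonin genes moved apart. Hspd1, which forms the HSP60 barrel, measured 10.50, 10.38, 10.31 and 10.21 in GSK day 14 libraries, against 10.82, 11.07, 10.83 and 10.79 in DMSO day 14 libraries. Hspe1, which forms the HSP10 lid of that barrel, measured 10.03, 9.58, 9.89 and 9.98 in GSK day 14 libraries, against 9.07, 9.18, 9.45 and 9.35 in DMSO day 14 libraries. Neither gene's groups overlapped, and the directions were opposite: Hspd1 changed by -0.53 (SE 0.12, adjusted p = 0.0152) and Hspe1 by 0.61 (SE 0.14, adjusted p = 0.0175). The difference Hspe1 minus Hspd1 within a library was -0.48 ± 0.24 in GSK day 14 and -1.62 ± 0.25 in DMSO day 14 libraries (SD, n = 4 each). On day 8 it was -1.35 ± 0.26 in GSK and -1.85 ± 0.13 in DMSO libraries (SD, n = 3 each). Both calls held within the AY036118-high libraries (Hspd1 -0.47, adjusted p = 0.0435, and Hspe1 0.61, adjusted p = 0.0435). When single libraries were left out, Hspd1 ranged from -0.58 to -0.46 and lost its call without GSK day 14 library 4 or DMSO day 14 library 2. Hspe1 ranged from 0.54 to 0.71 and lost its call without either of these or GSK day 14 library 1. The exons of the genes overlap on opposite strands over 112 bases, and 53.1% (Hspd1) and 30.5% (Hspe1) of their exonic 31-base words occur in other genes, so reads could have been exchanged with copies elsewhere.

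Hspd1 and Hspe1 lie head to head on chromosome 1. For 1 annotated RefSeq start of Hspd1, the starts are 216 bases apart and the 300-base promoter windows share 285 bases. The window of another Hspd1 start (chr1:55088194-55088493) holds 0 matches to the heat-shock element. Which start was used in these macrophages was not tested. The Hspe1 window is shown because the genes changed in opposite directions, and capitals mark heat-shock elements.
Hspe1 (chr1:55087898-55088197, + strand): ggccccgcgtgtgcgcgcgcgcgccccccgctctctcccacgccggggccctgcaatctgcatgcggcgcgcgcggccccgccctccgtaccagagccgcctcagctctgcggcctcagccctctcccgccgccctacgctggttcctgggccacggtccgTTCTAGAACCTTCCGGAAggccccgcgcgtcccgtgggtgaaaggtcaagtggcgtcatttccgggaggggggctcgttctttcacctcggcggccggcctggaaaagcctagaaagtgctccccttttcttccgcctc
The run of 3 overlapping matches begins 89 bases before the Hspe1 start. Read on the other strand, the same run begins 144 bases before the Hspd1 start that lies 216 bases away.

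The CCT ring has 8 kinds of subunit in 1 assembled complex, of which 7 genes were measured and Cct6a was not analysed here. On day 14, 1 subunit rose and 3 fell, against 5.10% and 5.73% of all genes. Cct2 measured 8.88, 8.66, 8.82 and 9.26 in GSK day 14 libraries, against 8.13, 7.50, 8.40 and 8.12 in DMSO day 14 libraries. Cct5 measured 10.72, 10.53, 10.66 and 10.20 in GSK day 14 libraries, against 11.32, 11.51, 11.07 and 11.30 in DMSO day 14 libraries. Both genes separated the groups without overlap, in opposite directions. Cct2 changed by 0.87 (SE 0.21, adjusted p = 0.0195) and Cct5 by -0.77 (SE 0.16, adjusted p = 0.0112). Cct7 averaged 10.51 ± 0.23 in GSK and 11.25 ± 0.30 in DMSO, a change of -0.74 (adjusted p = 0.0285), and Cct8 averaged 11.15 ± 0.14 and 11.68 ± 0.17, a change of -0.53 (adjusted p = 0.0158; SD, n = 4 each). Tcp1 (subunit alpha) changed by -0.16 with a 95% interval of -0.50 to 0.17, and Cct3 and Cct4 by -0.24 and 0.04, all short of the threshold.
Within a library, Cct2 minus Cct5 was -1.62 ± 0.46 in GSK day 14 and -3.26 ± 0.55 in DMSO day 14 libraries, and on day 8 -3.09 ± 0.74 in GSK and -4.07 ± 0.39 in DMSO libraries. Over both days the same 4 subunits passed, where 14.5% of all genes did. The changes were 0.59 for Cct2 (adjusted p = 0.0233), -0.72 for Cct5 (adjusted p = 0.00263), -0.66 for Cct7 (adjusted p = 0.0107) and -0.43 for Cct8 (adjusted p = 0.00891). Within the AY036118-high libraries the day 14 calls of Cct2 (0.64, adjusted p = 0.0498) and Cct5 (-0.67, adjusted p = 0.0417) held, while Cct7 (-0.56, adjusted p = 0.0923) and Cct8 (-0.45, adjusted p = 0.0651) missed. Over both days these libraries kept Cct5 and Cct7 and lost Cct2 (0.40, adjusted p = 0.1) and Cct8 (-0.39, adjusted p = 0.0512), and with the rRNA split in the model Cct2 (0.38, adjusted p = 0.114) and Cct7 (-0.49, adjusted p = 0.0542) were lost. Among the single omissions, the day 14 call of Cct5 was lost without GSK day 14 library 4 (range -0.85 to -0.66), and those of Cct2 (0.69 to 0.99) and Cct8 (-0.60 to -0.47) without that library or DMSO day 14 library 2. Cct7 (-0.89 to -0.63) lost it without GSK day 14 library 2 or 4 or DMSO day 14 library 1, 2 or 4. Over both days, the Cct2 call (0.50 to 0.69) also ended without GSK day 8 library 2 or 3, DMSO day 8 library 3 or GSK day 14 library 4. Of the exonic words, 0.0751% of Cct2 and none of Cct5 occur in other genes.

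The promoter windows of Cct2 and Cct5 with a match are shown because each holds 1 heat-shock element, in capitals, while the genes changed in opposite directions.
Cct2 (chr10:117063326-117063625, - strand): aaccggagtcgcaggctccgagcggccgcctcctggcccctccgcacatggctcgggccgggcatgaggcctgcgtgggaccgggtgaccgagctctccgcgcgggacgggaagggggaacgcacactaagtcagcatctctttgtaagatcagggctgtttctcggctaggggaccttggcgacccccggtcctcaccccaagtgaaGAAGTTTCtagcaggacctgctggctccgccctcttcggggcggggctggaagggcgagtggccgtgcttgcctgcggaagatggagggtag
Cct5 (chr15:31601797-31602096, - strand): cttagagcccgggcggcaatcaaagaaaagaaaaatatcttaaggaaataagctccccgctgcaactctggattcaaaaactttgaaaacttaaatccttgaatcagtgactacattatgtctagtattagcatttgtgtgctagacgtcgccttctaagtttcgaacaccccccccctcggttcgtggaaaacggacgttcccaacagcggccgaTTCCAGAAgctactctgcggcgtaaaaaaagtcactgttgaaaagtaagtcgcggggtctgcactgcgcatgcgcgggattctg
The match begins 42 bases before the start in Cct2 and 34 bases before it in Cct5. The window of another start of each gene (chr10:117063803-117064102 for Cct2, chr15:31601490-31601789 for Cct5) holds 0 matches. Which start was used in these macrophages was not tested.

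J-domain genes changed in both directions. Of 34 members in the 3 classes, 4 rose and 2 fell on day 14, against 5.10% and 5.73% of all genes. Dnajc13 (RME-8), which works with HSP70 in endosomal sorting, measured 8.13, 8.24, 8.25 and 8.62 in GSK day 14 libraries, against 7.03, 7.59, 7.75 and 7.87 in DMSO day 14 libraries. The groups did not overlap, and the change was 0.75 (SE 0.21, adjusted p = 0.0329). It was larger within the AY036118-high libraries, at 0.92 (adjusted p = 0.0356), and over both days it was 0.65 (adjusted p = 0.0151). Dnajb9 (ERdj4), an ER co-chaperone that the unfolded protein response raises, measured 7.19, 6.90, 7.01 and 7.15 in GSK day 14 libraries, against 6.27, 6.49, 6.81 and 6.34 in DMSO day 14 libraries, a change of 0.59 (SE 0.16, adjusted p = 0.0343). Its partner in that response Dnajc3 (p58IPK) changed by 0.49 (95% interval 0.10 to 0.88, adjusted p = 0.0914). Dnajc9, a histone co-chaperone, rose by 0.49 (adjusted p = 0.032). Dnajc4, the lowest member and 1 of the 4 counted as risen, differed by 0.40 (adjusted p = 0.0325). It passed the filter only through GSK day 14 libraries, the group where it was high, so its call cannot stand as support for a rise. Its call over both days was lost in 8 single omissions (0.26 to 0.32) and with the split in the model (0.24, adjusted p = 0.149).
Dnajc7 (TPR2), which links HSP70 and HSP90, averaged 8.96 ± 0.11 in GSK and 9.55 ± 0.27 in DMSO on day 14 (SD, n = 4 each), a change of -0.59 (SE 0.14, adjusted p = 0.0176), and over both days it changed by -0.56 (adjusted p = 0.00408). Dnajc30, a mitochondrial protein tied to ATP synthase, averaged 7.10 ± 0.19 in GSK and 7.69 ± 0.09 in DMSO, a change of -0.59 (SE 0.15, adjusted p = 0.0246). Antisense exons overlap Dnajc7 over 441 bases and Dnajc30 over 436 bases. Over both days Dnajc25 (0.65, adjusted p = 0.0168), Dnajc18 (0.42, adjusted p = 0.0177) and Dnajc24 (0.34, adjusted p = 0.0463) also rose, none of which passed on either day alone. The HSF1-inducible Dnajb1 and Dnaja1 did not pass: Dnajb1 averaged 6.67 ± 0.27 in GSK and 6.31 ± 0.52 in DMSO on day 14, and Dnaja1 9.75 ± 0.12 and 9.34 ± 0.28, with changes of 0.36 (95% interval -0.17 to 0.89) and 0.40 (-0.01 to 0.82).
Leaving out GSK day 14 library 4 ended each of these 6 day 14 calls, and leaving out DMSO day 14 library 2 ended them too. Without other single libraries Dnajc13 (0.58 to 0.86), Dnajb9 (0.52 to 0.70), Dnajc9 (0.41 to 0.56) and Dnajc4 (0.35 to 0.48) lost it as well: Dnajc13 without GSK day 14 library 1, 2 or 3 or DMSO day 14 library 1, Dnajb9 without GSK day 14 library 1 or 3 or DMSO day 14 library 1 or 4, Dnajc9 without GSK day 14 library 1, 2 or 3 or DMSO day 14 library 3, and Dnajc4 without GSK day 14 library 2 or 3 or DMSO day 14 library 4. Dnajc30 (-0.66 to -0.52) lost it also without GSK day 14 library 1, and Dnajc7 ranged from -0.68 to -0.48. The calls over both days ended without GSK day 8 library 3 for Dnajc13 (0.52 to 0.72 over all omissions) and without any of 11 single libraries for Dnajc24 (0.29 to 0.39), while those of Dnajc7, Dnajc18 and Dnajc25 held under single omissions. In the AY036118-high libraries these calls over both days were lost for Dnajc7 (-0.35, adjusted p = 0.0578), Dnajc18 (0.33, adjusted p = 0.0842), Dnajc24 (0.32, adjusted p = 0.103) and Dnajc25 (0.32, adjusted p = 0.16). With the split in the model Dnajc7 passed (-0.48, adjusted p = 0.0228) and Dnajc18 (0.35, adjusted p = 0.0878), Dnajc24 (0.37, adjusted p = 0.0915) and Dnajc25 (0.56, adjusted p = 0.079) did not.

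BAG co-chaperones, which release ADP from HSP70, gave no call on either day among 4 members. Bag3, the HSF1-inducible member that steers HSP70 clients to autophagy, measured 6.67, 6.79 and 6.74 in GSK day 8 libraries, against 6.26, 6.29 and 6.45 in DMSO day 8 libraries. On day 14 it averaged 7.01 ± 0.12 in GSK and 6.74 ± 0.12 in DMSO libraries (SD, n = 4 each). Averaged over both days Bag3 rose by 0.33 (SE 0.09, adjusted p = 0.0296). With the rRNA split in the model it was 0.36 (adjusted p = 0.0612). It lost this call without GSK day 8 library 2 or 3 or GSK day 14 library 1, 2 or 4, at 0.30 to 0.36.

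The transcription factors differed in level and in change. Hsf2, a factor active in development and on proteasome inhibition, measured 8.82, 8.58, 8.74 and 8.26 in GSK day 14 libraries, against 9.53, 9.49, 9.15 and 9.49 in DMSO day 14 libraries. On day 8 it measured 9.31, 9.15 and 9.07 in GSK libraries, against 9.76, 9.53 and 9.61 in DMSO libraries. GSK libraries lay below DMSO libraries of the same day without overlap on both days. The change was -0.82 (SE 0.14, adjusted p = 0.00522) on day 14, the smallest adjusted p among members there, -0.45 (SE 0.16, adjusted p = 0.185) on day 8 and -0.63 (SE 0.11, adjusted p = 0.00233) over both days. Its day 14 call held within the AY036118-high libraries (-0.74, adjusted p = 0.0345), with the split as a term (-0.74, adjusted p = 0.0199) and with any 1 library left out (-0.91 to -0.71). Hsf1, the main heat-shock factor, whose protein is controlled largely after translation, averaged 4.39 ± 0.13 in GSK and 4.62 ± 0.22 in DMSO on day 14, a change of -0.24 (95% interval -0.59 to 0.12), and 0.06 (-0.35 to 0.47) on day 8.

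**Figure D4:**
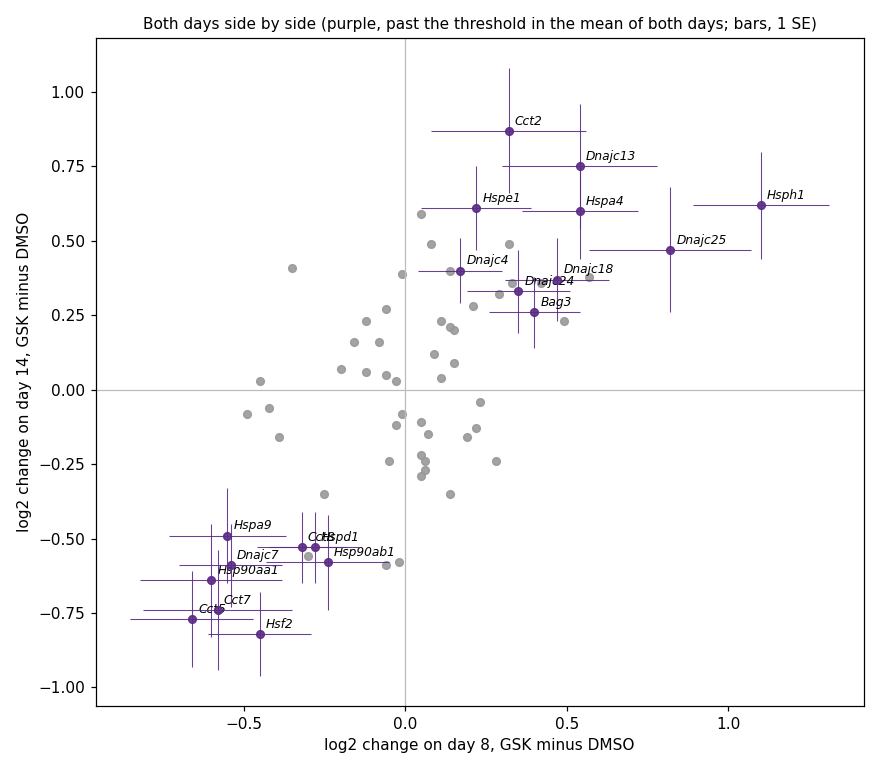
Each point is 1 member, with its log2 change on day 8 (GSK minus DMSO, horizontal) and day 14 (vertical); the 19 members past the threshold averaged over both days are purple, named, and carry bars of 1 SE. All 19 changed in the same direction on both days, which their selection on the mean of both days favours. Hsph1 is farthest to the right at 1.10.

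Between days, 8 of 67 members (11.9%) passed in GSK tumours, 3 higher and 5 lower on day 14 than on day 8, against 7.01% of all genes (3.05% higher, 3.95% lower). At an unadjusted p under 0.05 there were 23, against 24.9% of all genes. In DMSO tumours 0 passed by limma, against 0.824% of all genes, with 11 at an unadjusted p under 0.05, against 15.4% of all genes. The days did not overlap for 26 members in GSK tumours, 13 in each direction, against 30.3% of all genes (15.1% higher, 15.2% lower), and for 12 members in DMSO tumours, 6 in each direction, against 10.1% (4.10% higher, 5.98% lower). Whether the change over time differed between pre-treatments is the same test as the difference between days above, which no member passed. The GSK tumour count also varied with single libraries, at 0 without GSK day 8 library 2 or GSK day 14 library 4, 1 without GSK day 8 library 1 or GSK day 14 library 2, 3 without GSK day 14 library 1 or 3, and 13 without GSK day 8 library 3. Over all genes the count moved too, from 363 higher and 470 lower to 106 and 131 without GSK day 8 library 2. In DMSO tumours 1 member, Hspa4, passed without DMSO day 8 library 2, where 147 of all genes were higher and 158 lower. In GSK tumours the count over all genes was 67 and 103 without GSK day 14 library 4, and 519 and 699 without GSK day 8 library 3. With the rRNA split as a term it was 200 and 271 in GSK tumours, to which the member counts that follow also belong. Within the AY036118-high libraries 3 passed, Hspa1a, Hspa1b and Hspa4, and with the split as a term also 3, Cct2, Hspa1a and Hspb1.

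In GSK tumours Hspa1a and Hspb1 had the largest falls among members. Hspa1a, the heat-inducible HSP70, measured 7.49, 6.81, 7.43 and 6.93 in GSK day 14 libraries, against 7.84, 8.54 and 8.58 in GSK day 8 libraries. Hspb1 (HSP25), a small heat-shock protein that holds unfolded proteins and binds actin, measured 5.44, 4.92, 5.26 and 5.36 in GSK day 14 libraries, against 6.74, 6.15 and 5.94 in GSK day 8 libraries. Day 14 lay below day 8 without overlap for both genes. In GSK tumours Hspa1a changed by -1.16 (SE 0.25, adjusted p = 0.0177) and Hspb1 by -1.03 (SE 0.23, adjusted p = 0.0209). In DMSO tumours, also without overlap, Hspa1a changed by -0.82 (SE 0.25, adjusted p = 0.135) and Hspb1 by -0.77 (SE 0.23, adjusted p = 0.131). Hspa1b measured 7.10, 6.29, 6.82 and 6.81 in GSK day 14 libraries, against 7.13, 7.90 and 7.97 in GSK day 8 libraries, and its change of -0.91 missed the threshold (adjusted p = 0.0543), while in DMSO tumours it changed by -0.94 (adjusted p = 0.116). Over the single omissions Hspa1a ranged from -1.40 to -1.03 and lost its call without GSK day 8 library 2 or GSK day 14 library 4, and Hspb1 ranged from -1.20 to -0.80 and lost it without these, GSK day 8 library 1 or GSK day 14 library 2. Of the exonic words of Hspb1, 55.4% occur in other genes. Hspb8, its small heat-shock relative and partner of Bag3, missed the threshold over time in GSK tumours at -0.83 (adjusted p = 0.0847), and both genes missed it on day 14 between pre-treatments, at -0.56 for Hspb1 and -0.58 for Hspb8 (adjusted p of 0.107 and 0.169).

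Markers of 4T1 epithelium fell over the same days. Of 10 such genes kept, 8 fell in GSK tumours with a median change of -1.69, led by Krt18 at -2.95, where 3.95% of all genes fell, and 1 fell in DMSO tumours with a median of -0.78, where 0.522% of all genes fell. The summed level of the list was 10.24 to 10.72 in GSK day 14 libraries, against 10.82 to 11.94 in GSK day 8 libraries, and 10.32 to 11.0 in DMSO day 14 libraries, against 11.21 to 11.53 in DMSO day 8 libraries. Among GSK day 8 libraries the sum was 11.94, 11.45 and 10.82, which is the order of Hspb1 (6.74, 6.15 and 5.94) and the reverse of that of Hspa1a (7.84, 8.54 and 8.58). In DMSO day 8 libraries the sum was 11.21, 11.24 and 11.53. Hspb1 measured 6.63, 6.79 and 6.30 and Hspa1a 8.85, 7.94 and 8.03 there, so neither order recurred. The summed level of endothelial genes was also lower on day 14. It was 9.87 to 10.23 against 10.4 to 10.99 on day 8 in GSK tumours. In DMSO tumours it was 10.13 to 10.54 against 10.87 to 11.05. Over all libraries Epcam measured 3.39 to 4.60 and Cdh1, the highest gene of the epithelium list on day 14, 9.90 to 10.66. The part that epithelial or endothelial RNA had in the fall of Hspb1 or Hspa1a was not tested. In these bulk samples fewer cells of a type and less RNA per cell cannot be told apart.

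**Figure D5:**
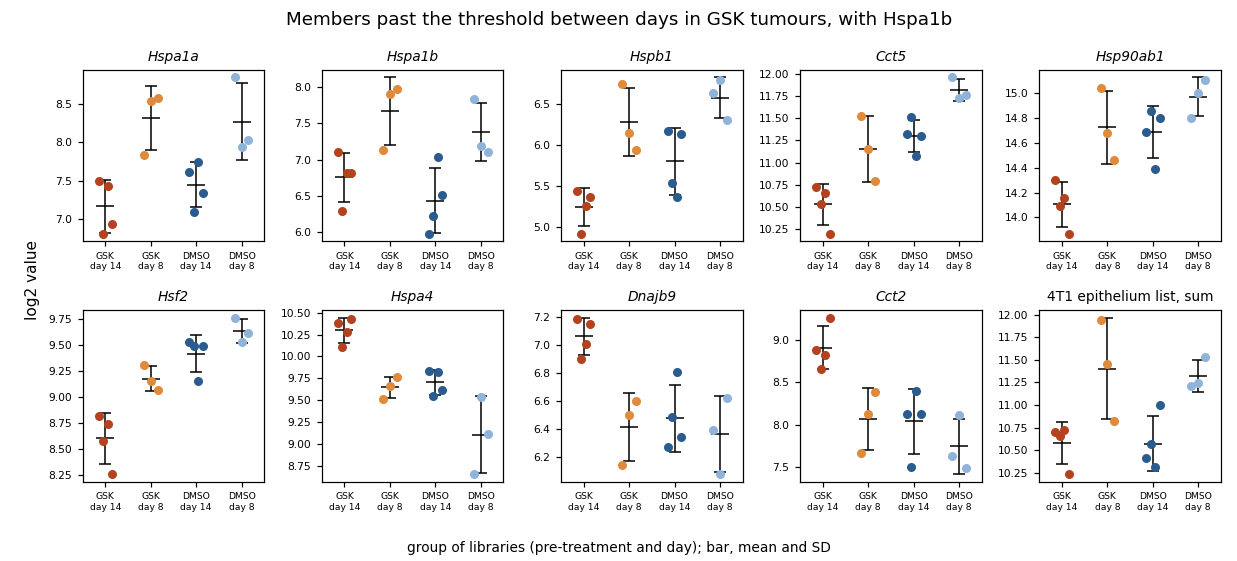
Panels show the log2 value of every library by group, with mean and SD, for Hspa1a, Hspa1b, the other 7 members past the threshold between days in GSK tumours, and the summed level of 10 4T1 epithelium genes. Hspa1a, Hspb1 and the epithelium sum are lower in GSK day 14 than in GSK day 8 libraries, and Hspa4, Dnajb9 and Cct2 higher.

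Promoter windows of Hspb1 and Hspa1a are shown for the genes with the largest falls over time in GSK tumours, with heat-shock elements in capitals. The Hspa1b window differs from that of Hspa1a at 4 of 300 bases and holds its element at the same place.
Hspb1 (chr5:135887669-135887968, + strand): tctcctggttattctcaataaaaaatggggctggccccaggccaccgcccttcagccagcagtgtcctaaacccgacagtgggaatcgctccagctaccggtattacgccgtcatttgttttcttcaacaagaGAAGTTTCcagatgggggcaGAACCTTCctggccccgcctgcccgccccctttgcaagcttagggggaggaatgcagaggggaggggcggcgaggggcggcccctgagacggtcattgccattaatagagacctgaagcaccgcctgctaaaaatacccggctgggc
Hspa1a (chr17:34972107-34972406, - strand): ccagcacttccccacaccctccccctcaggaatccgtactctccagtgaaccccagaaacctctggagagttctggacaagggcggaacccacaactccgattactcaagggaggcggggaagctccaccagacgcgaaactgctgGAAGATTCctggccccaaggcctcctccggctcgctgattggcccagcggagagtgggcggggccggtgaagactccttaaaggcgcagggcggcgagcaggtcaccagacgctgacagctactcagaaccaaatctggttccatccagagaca
Matches begin 117 and 97 bases before the Hspb1 start and 104 bases before the Hspa1a start.

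The other 6 calls over time in GSK tumours were also members that passed on day 14 between pre-treatments, and these comparisons share the GSK day 14 libraries. Hspa4 changed by 0.65 (adjusted p = 0.035), Cct2 by 0.84 (adjusted p = 0.0373) and Dnajb9 by 0.65 (adjusted p = 0.0386). Hsf2 changed by -0.58 (adjusted p = 0.0329), Cct5 by -0.63 (adjusted p = 0.0426) and Hsp90ab1 by -0.63 (adjusted p = 0.0429). In DMSO tumours the changes were 0.60 for Hspa4, 0.30 for Cct2, 0.11 for Dnajb9, -0.22 for Hsf2, -0.52 for Cct5 and -0.28 for Hsp90ab1, with adjusted p from 0.114 to 0.804. Without GSK day 8 library 1 or 2 or GSK day 14 library 2 or 4 none of the 6 passed. Without GSK day 14 library 1 or 3 only Hsf2 of the 6 passed. Cct5 also missed without DMSO day 8 library 3 or DMSO day 14 library 4, and Hsp90ab1 without DMSO day 14 library 4. Over all omissions the changes were 0.59 to 0.72 for Hspa4, 0.65 to 1.01 for Cct2 and 0.51 to 0.74 for Dnajb9. They were -0.66 to -0.47 for Hsf2, -0.81 to -0.44 for Cct5 and -0.76 to -0.47 for Hsp90ab1.

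Other genes of the proteostasis network were called in both directions on day 14, where 10.8% of all genes passed. Of 21 HSF1-linked co-chaperones and targets outside the members, 1 rose and 3 fell, with a median of -0.01. Hikeshi, which carries HSP70 into the nucleus, rose by 0.74 (adjusted p = 0.0133), while Stub1 (CHIP), the ubiquitin ligase that acts on HSP70 and HSP90 clients, fell by 1.00, and the HSP90 co-chaperones Ptges3 (p23) and Fkbp4 fell by 0.54 and 0.51. Of 21 ER folding and unfolded protein response genes, 1 rose (Syvn1, an ER ubiquitin ligase, 0.68) and 2 fell (Atf4, -0.76, and Cdk2ap2, -0.66). Of 12 mitochondrial proteostasis genes, 0 rose and 2 fell, the protease subunit Spg7 (-0.73) and the import motor subunit Pam16 (-0.75). Of 12 prefoldin and tubulin-folding genes, 1 fell, the prefoldin subunit Pfdn5 (-0.67), which hands clients to CCT. In GSK tumours over time, where 7.01% of all genes passed, 3 HSF1-linked genes fell, the HSP70 to HSP90 adaptor Stip1 (-0.75), St13 (-0.53) and Stub1 (-1.04). Of the ER genes Syvn1 rose (0.82) and Cdk2ap2 fell (-0.54), of the mitochondrial genes Spg7 fell (-0.79), and of the prefoldin and tubulin-folding genes 0 passed.

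Genes that rise when tissue is dissociated overlap in kind with heat-shock genes, so 18 of them outside the members were followed. On day 14, 0 rose and 3 fell between GSK and DMSO (Klf2 -1.25, Jund -1.03 and Ier3 -0.50), against 5.10% and 5.73% of all genes. In GSK tumours over time 2 rose (Ier2 0.88, Klf4 0.63) and 1 fell (Jund -1.20), against 3.05% and 3.95% of all genes. The summed level of the list was 15.20 to 15.48 in GSK day 14 and 15.22 to 15.76 in DMSO day 14 libraries. Of 10 macrophage markers, 4 rose and 2 fell on day 14, against the same shares of 5.10% and 5.73%. Cd68 (1.04), Tyrobp (0.96), Lyz2 (0.81) and Adgre1 (0.70), which encodes F4/80, rose, while Aif1 (-0.62) and Itgam (-0.59) fell. For markers of other cells, the summed level of neutrophil genes was 10.33 to 11.26 in GSK day 14 and 11.07 to 11.34 in DMSO day 14 libraries, and that of endothelial genes was 9.87 to 10.23 in GSK day 14 and 10.13 to 10.54 in DMSO day 14 libraries. Of the 4T1 epithelium genes none passed on day 14, and Krt14 was higher in GSK on day 8 (1.37, adjusted p = 0.0361). The part of these shifts in the changes of the members was not tested.

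Promoter windows were found for 53 of the 67 members. Those without a window include Hsp90aa1, Hsp90ab1 and Dnajc30, which fell on day 14, and also Hspa8 and Hsf1. The heat-shock element GAANNTTC or TTCNNGAA was present for 15 of the 53 (28.3%) and in 17 of their 69 windows (24.6%), against 15.1% of 32851 RefSeq windows. On day 14, 3 of the 15 rose (Cct2, Hspe1, Hsph1) and 2 fell (Cct5, Hspd1). Of the 38 without a match 5 rose, among them Dnajc4 with the limit given above, and 4 fell. Of all genes 5.10% rose and 5.73% fell. An ER stress response element, searched on both strands as CCAAT followed by 9 free bases and CCACG, was present for 3 of the 53, Hspa5, Hsp90b1 and Dnajc3, and in 0.119% of all windows, and none of these 3 genes passed on either day. Across the 67 members, the day 14 change had a Pearson correlation of -0.35 with mean level, against -0.15 across all 11886 genes, and of -0.16 with GC content in both sets. These genes share the same libraries, so the values are descriptions only.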

How the data were processed

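RNA-seq of F4/80-selected tumour macrophages was deposited by the authors as 1 table of log2 values per gene. RSEM 1.2.29, Bowtie2 and DESeq2 1.12.4, with mm10 and GRCh38, are named per the submitters' processing notes; the transformation is not given in the sources used here, and shrinkage of low genes, if any, would understate their changes. No counts were used, so depth is unknown, no counting interval can be given, and the number of libraries limits precision.

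Identifiers were matched to GENCODE M21 (GRCm38, the assembly of mm10), with 24483 of 24556 matched and 73 not. Genes with an unlogged value of at least 10 in at least 3 libraries were kept. limma 3.58.1 in R 4.3.3 modelled all 14 libraries by 4 group means (eBayes with trend), was tested on simulated data, and gave two-sided p-values adjusted by Benjamini-Hochberg over 11886 genes per comparison, with 0.05 as the threshold. Libraries were grouped by the labels' pre-treatment and day. Exon overlaps and shared 31-base words were computed from the M21 genome and annotation, and promoters were taken from a RefSeq table (GRCm38.p6). The counting strand is not given in the sources used here, so antisense overlaps are stated.

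Named genes were the members past the threshold in a comparison, 19 canonical chaperone genes, and the highest member of each class. Members, lists and tests were chosen with earlier results of these data known. Alternatives were a pseudocount of 10, no filter, a minimum of 50, quantile normalisation, no trend, a replicate block, only the groups compared, the ribosomal RNA split, Hspa1a and Hspa1b summed, and each library left out.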

Additional observations from a re-analysis of the deposited data

Results flagged for a closer look

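In 66 tests of a gene in a group of 4 libraries, 4 had a library farther from the others than Dixon's 95% value of 0.829 allows, and chance flags about 1 in 20 such groups. Dnaja1 measured 9.56 in GSK day 14 library 3, below the others at 9.79 to 9.83. Hsf2 measured 9.15 in DMSO day 14 library 3, below the others at 9.49 to 9.53. Hspd1 measured 11.07 in DMSO day 14 library 2, above the others at 10.79 to 10.83. Hsph1 measured 8.54 in GSK day 14 library 3, above the others at 8.34 to 8.37. Groups of 3 libraries, which include all of day 8, were not tested.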

How the results depend on the processing

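Of the 45 calls of a member in a comparison, all kept their direction under every setting that could be run for them. Under quantile normalisation 12 members passed on day 14, with 558 of all genes higher and 598 lower. The number of members past the threshold on day 8 was 0 with no filter, with a replicate block, with only the groups compared, with the rRNA split in the model, and without library 1 of both day 8 groups together, a setting chosen after seeing the data (20, 19, 13, 17 and 18 at an unadjusted p under 0.05 by limma). On day 14 it was 8 with no filter, 4 with the split and 8 in the AY036118-high libraries. Averaged over both days it was 8 with the split and 9 in the AY036118-high libraries. Over time in GSK tumours it was 0 with no filter (26 at an unadjusted p under 0.05), 2 with a replicate block, 3 with the split, 3 in the AY036118-high libraries and 2 without the first day 8 libraries. With 1 library left out the count ran from 0 to 2 on day 8, 1 to 18 on day 14, 12 to 25 over both days, 0 to 1 over time in DMSO tumours and 0 to 13 over time in GSK tumours, and stayed at 0 for the difference between days. Over all genes the calls over time in GSK tumours dropped too, from 363 higher and 470 lower in the main model. They were 106 and 151 with no filter, 123 and 178 with a replicate block, and 200 and 271 with the split. On day 8 they were 7 and 16 in the main model. There they were 0 and 0 with no filter, 2 and 0 with only the groups compared, and 1 and 7 with the split. They were 3 and 26 with a replicate block and 24 and 21 without the first day 8 libraries. With no filter 24556 genes entered the adjustment. The cause of the other shifts was not tested.

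Signs turned only for differences that had not passed. In the AY036118-high libraries Dnajb1 stood at -0.02 on day 14 and -0.14 on day 8, Hsf1 at -0.12, Hspa8 at -0.37 and Tcp1 at -0.19 on day 8, and Hsp90b1 at 0.16 on day 14. Hsp90b1 on day 14 was 0.04 under quantile normalisation and 0.12 with the split, where Hspa1a on day 8 was -0.04. Without the first day 8 libraries Hsf1 was -0.17 and Tcp1 -0.10 on day 8. With 1 library left out, day 8 changes ran from -0.06 to 0.47 for Dnaja1, -0.18 to 0.21 for Hsf1, -0.12 to 0.34 for Hspa1a and -0.10 to 0.33 for Hspa8, Hsp90b1 on day 14 from -0.23 to 0.03, and Dnajb9 over time in DMSO tumours from -0.03 to 0.24.

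The labels do not say whether equal library numbers mark paired samples. Deviations of same-numbered libraries correlated at -0.34 to 0.52 (median -0.03), against -0.52 to 0.38 (median -0.02) for other pairs. With 3 or 4 libraries per group, these values cannot settle whether samples were paired. With the replicate block 14 members passed on day 14 and 17 over both days.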
